A study of Mus musculus with 9 samples.

Results

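The 45 genes described here encode liver enzymes that break down amino acids. By pathway, 5 belong to tyrosine, 6 to tryptophan, 6 to serine and glycine, 4 to histidine, 8 to methionine and cysteine, and 7 to the branched-chain amino acids. A further 5 are aminotransferases and glutamate dehydrogenase, and 4 handle lysine, proline and phosphoethanolamine. They were taken by gene symbol from a deposited table of 25781 genes. All 45 were found, had reads in each of the 9 libraries, and passed the filter on low values, which kept 20145 genes. The RNA came from livers of Swiss mice aged 10 to 12 weeks, with 3 libraries in each of 3 groups. The control group carries no named agent. The β-CYP group was given β-CYP at 40 mg/kg, and the third group was given that same dose plus Na2SeO3 (sodium selenite, a selenium salt) at 50 µg/kg. The series' design text names these groups control, liver injury and repair. What β-CYP stands for is not spelled out in the labels, and no group given selenite alone was analysed here, so selenite is compared only on top of β-CYP. Nothing in the labels tells whether a group's libraries are separate mice; the p-values then reflect only how far these libraries differ, and that spread may be technical.

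Amino acids that are not needed for protein are broken down mainly in the liver. An aminotransferase, a deaminase or a dehydrogenase removes the nitrogen, which enters the urea cycle, and dedicated enzymes turn the carbon skeleton into glucose precursors, ketone bodies or intermediates of the citric acid cycle. Several of these enzymes are abundant hepatocyte transcripts, and some, such as tyrosine aminotransferase and serine dehydratase, are textbook targets of glucocorticoids and glucagon. The sulfur branch, from methionine through homocysteine to cysteine and taurine, also supplies the methyl donor S-adenosylmethionine and the precursor of glutathione.

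Levels are given as scaled counts, which are reads per gene divided by a size factor of the library. The libraries held 28630269 to 36029560 reads. The members took 2.05% to 2.31% of all reads in the control libraries, 2.29% to 2.31% in the β-CYP libraries and 1.68% to 1.70% in the selenite plus β-CYP libraries. The median coefficient of variation of a member within a group was 1.89% to 2.57%, against 1.17% to 1.41% from counting alone. Control replicate 2 stood apart from the other controls: a chi-square over genes, per degree of freedom, was 182 and 201 against them and 8.96 to 13.2 for all other pairs within a group. Hepatocyte markers were high throughout, at a summed 3991650 to 4143720 scaled counts (control), 5118120 to 5245350 (β-CYP) and 4701740 to 4784480 (selenite plus β-CYP). In selenite plus β-CYP against control, 8 of the 15 markers rose and 5 fell, with a median log2 change of 0.082. Among those that rose were the fibrinogen chains Fga, Fgb and Fgg, acute-phase genes (log2 changes of 1.37, 1.14 and 1.13). The 5 that fell were Alb, Ttr, Rbp4, Apoa2 and Vtn (-0.26 to -0.12). In a bulk sample, fewer hepatocytes and less RNA per hepatocyte cannot be told apart. The markers of pancreatic acinar cells summed to 977 to 1079 reads for control, 1160 to 1258 for β-CYP and 42879 to 44330 for selenite plus β-CYP, and Cela1 was the 1 of 16 above 0 in every library. No read was seen for 11 of them in control and for 9 in β-CYP, Cpa1, Cpb1 and Pnlip among them in both, and all 16 rose with selenite plus β-CYP against either group. Neutrophil markers summed to 168 to 191 scaled counts for control, 550 to 630 for β-CYP and 809 to 921 for selenite plus β-CYP. Of the 10 tested, 5 rose with β-CYP against control and 8 with selenite plus β-CYP against control, but 1 against β-CYP. Kupffer cell and macrophage markers summed to 15995 to 16563 for control, 16746 to 17138 for β-CYP and 19677 to 19813 for selenite plus β-CYP. Cholangiocyte markers summed to 2254 to 2429, 6490 to 6843 and 1877 to 2009, most of it Spp1 (means of 2211, 6476 and 1723), the 1 of 6 that rose with β-CYP. Lymphocyte markers summed to 466 to 519, 455 to 528 and 719 to 796; 1 of 10 rose in selenite plus β-CYP against control and 3 against β-CYP. Of 10 stellate cell markers 6 rose and 1 fell against control there, and of 8 sinusoidal endothelium markers 1 rose and 3 fell. Of all genes 14.4% rose and 14.5% fell in selenite plus β-CYP against control, and 11.6% rose against β-CYP. Among the abundant genes defined below 22.3% rose and 45% fell against control. The rises against control, 10% of lymphocyte and 12.5% of endothelium markers, were below the share of all genes. The part of these cells in the changes below was not tested.

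Most of these transcripts were lower with selenite plus β-CYP than with β-CYP: 40 of the 45 enzymes fell and none rose. Got1, Tat, Cbs and Kynu fell at least 2-fold. Over all genes tested 23.9% were called, 12.3% lower and 11.6% higher; 2.17% fell and 3.43% rose at least 2-fold. Among the 2430 genes at or above the members' 10th percentile of level, 42.9% fell and 18.5% rose. The median log2 change was -0.51 over the members and 0.017 over all genes. The 5 members that did not pass were Qdpr, Afmid, Sdsl, Csad and Gpt2. In 42 of 45 members all 3 selenite plus β-CYP libraries lay below all 3 β-CYP libraries, and in 1 member, Sdsl, they lay above. Of all genes 18.5% lay below and 19.3% above in this way. When libraries were scaled to equal totals instead, the median of all genes moved by 0.12 and the split of all calls went from 48.6% to 70.8% higher. With equal totals 33 members fell and none rose. The members' median lay 0.52 below that of all genes with equal totals and 0.53 below with the deposited scaling. Rescaling a library shifts all its genes nearly alike, so these distances could hardly differ. With quantile normalization, which can change the distance, the members' median lay 0.36 below. There 34 members fell, and Cdo1 and Gpt2 were called higher.

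The comparison of β-CYP with control was mixed. There 12 members rose, 16 fell and 17 did not pass, with a median log2 change of -0.062 against -0.0013 for all genes. Over all genes 7.72% rose and 8.58% fell, and among the abundant genes defined above 20.5% rose and 24.9% fell. Etnppl was the 1 member that fell at least 2-fold, as did 1.98% of all genes; 1.86% of all genes rose that far. The control and β-CYP libraries did not overlap for 15 members with β-CYP higher and for 21 with it lower, and for 31.6% of all genes in either direction. Without control replicate 2, 12 members rose and 12 fell. With equal totals 7 rose and 12 fell, and with no intensity trend 7 rose and 9 fell.

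Against control, 38 members fell with selenite plus β-CYP, 3 rose (Cdo1, Sdsl and Gpt2) and 4 did not pass (Pccb, Csad, Tdo2 and Afmid). Over all genes 14.5% fell and 14.4% rose, and among the abundant genes 45% fell and 22.3% rose. The members' median log2 change was -0.61, and that of all genes 0.027. A fall of at least 2-fold was seen for 8 members (Etnppl, Got1, Tat, Kynu, Acmsd, Hgd, Cbs and Cth), against 3.37% of all genes, and no member rose as far, against 4.44%. All libraries of selenite plus β-CYP were below all controls for 37 members and for 20.4% of all genes. With equal totals, which moved the median of all genes by 0.13 and the split of all calls from 49.9% to 69.3% higher, 33 members fell and 4 rose. Each pair of these comparisons shares a group of 3 libraries, so their values are set side by side below and are not counted as separate evidence.

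**Figure D1:**
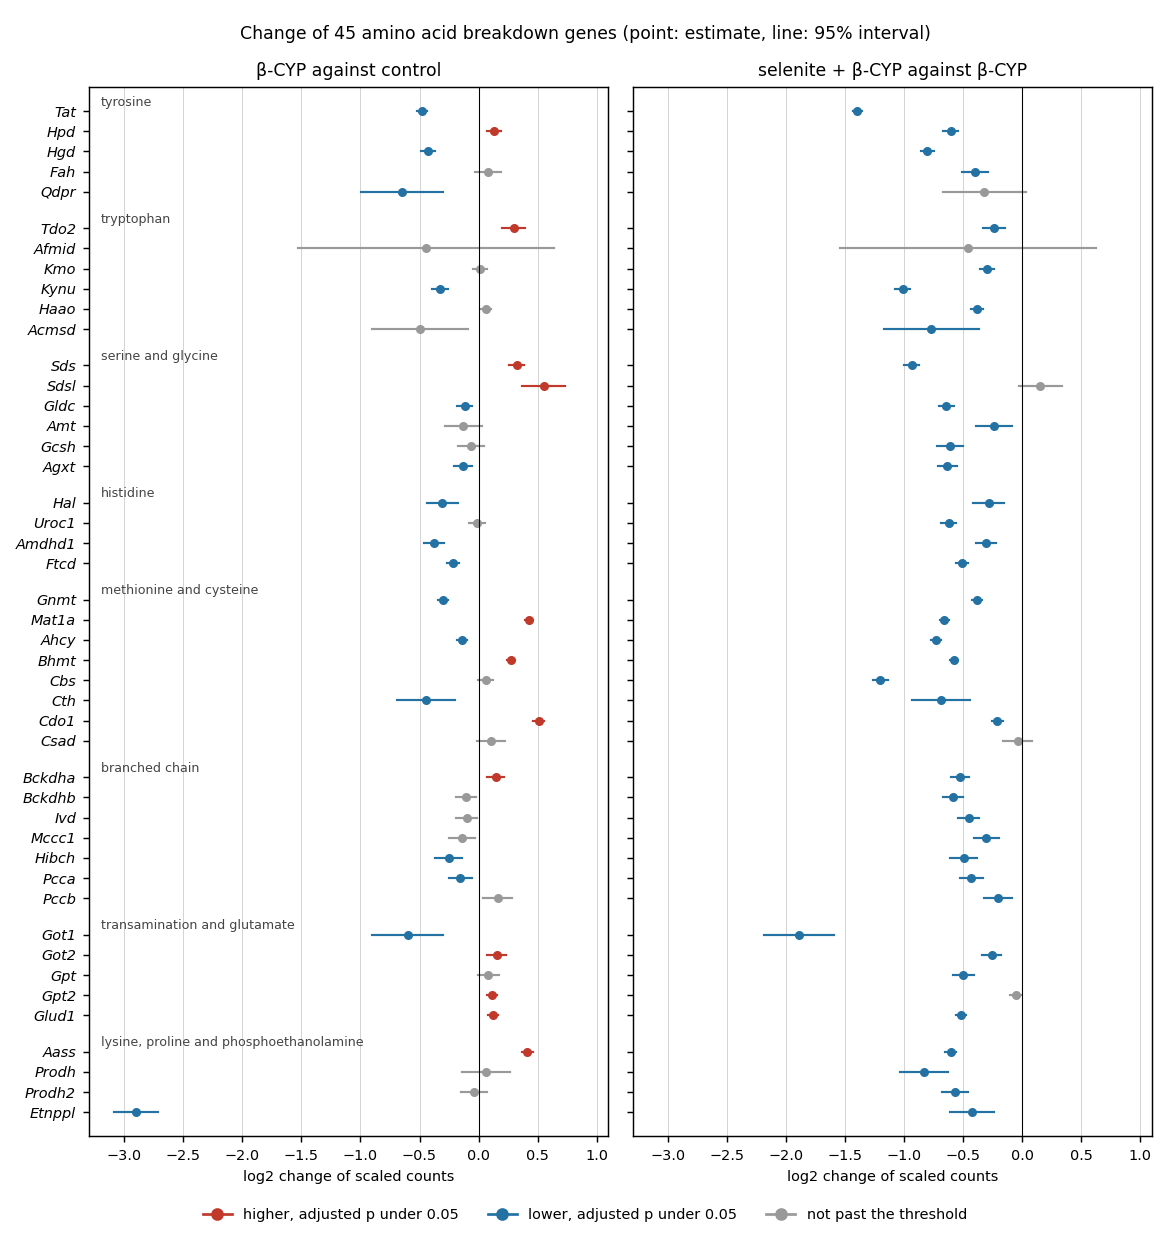
Log2 change of each of the 45 enzymes, with its 95% interval, grouped by pathway, in β-CYP against control and in selenite plus β-CYP against β-CYP. In selenite plus β-CYP against β-CYP the called members all lie below 0, whereas β-CYP against control has 12 above and 16 below.

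**Figure D2:**
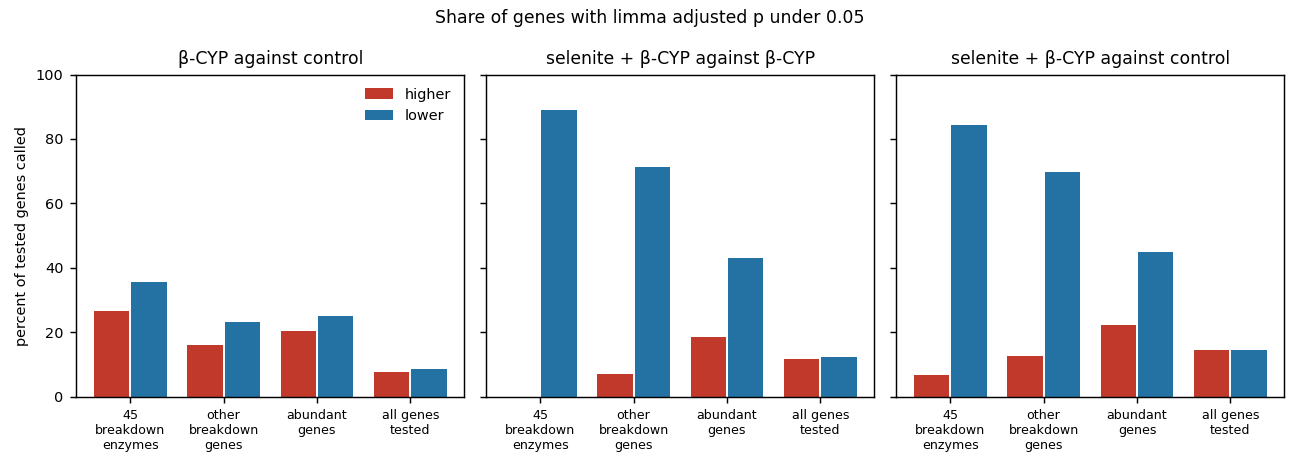
Share of members called higher and lower in each comparison, in percent. Beside them are the same shares for 56 other tested breakdown genes, the 2430 abundant genes and all 20145 genes tested. The members' lower share in selenite plus β-CYP against β-CYP was 88.9%. It was 71.4% for the other breakdown genes, 42.9% for the abundant genes and 12.3% for all genes.

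Promoter windows, from 250 bases before to 50 after a start site, were available for 38 of the members (42 windows, RefSeq, GRCm38.p6). They are shown for the 3 members with a window that fell at least 2-fold in selenite plus β-CYP against β-CYP. Got1 lies at chr19:43524556-43524855 on the minus strand, Tat at chr8:109990186-109990485 on the plus strand and Cbs at chr17:31637156-31637455 on the minus strand. Each is written 5′ to 3′ along its gene, and capitals mark the letters CCAAT or, on the other strand, ATTGG.
Got1: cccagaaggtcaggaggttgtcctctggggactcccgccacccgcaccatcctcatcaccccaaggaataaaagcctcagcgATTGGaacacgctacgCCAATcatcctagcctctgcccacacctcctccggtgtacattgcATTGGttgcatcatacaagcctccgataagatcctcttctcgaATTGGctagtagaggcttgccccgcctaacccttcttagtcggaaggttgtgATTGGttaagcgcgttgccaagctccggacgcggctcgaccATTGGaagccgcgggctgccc
Tat: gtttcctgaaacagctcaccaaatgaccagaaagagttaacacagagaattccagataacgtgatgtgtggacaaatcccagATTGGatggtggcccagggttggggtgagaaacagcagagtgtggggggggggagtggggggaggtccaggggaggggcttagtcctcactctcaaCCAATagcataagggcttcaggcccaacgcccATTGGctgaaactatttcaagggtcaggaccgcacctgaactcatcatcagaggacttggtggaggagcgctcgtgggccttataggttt
Cbs: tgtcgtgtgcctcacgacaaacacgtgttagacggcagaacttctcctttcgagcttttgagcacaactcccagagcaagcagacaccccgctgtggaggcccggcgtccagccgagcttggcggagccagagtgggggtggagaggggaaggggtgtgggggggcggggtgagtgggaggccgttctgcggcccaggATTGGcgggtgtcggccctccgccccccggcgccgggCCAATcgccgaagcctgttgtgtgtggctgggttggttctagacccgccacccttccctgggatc
The Got1 window holds the motif 6 times, at -168, -152, -107, -64, -12 and 30 bases from the start site. In Tat it occurs at -168, -72 and -40, and in Cbs at -52 and -15. CCAAT in either orientation was found in 23 of the 42 member windows (54.8%) and in 37.4% of all 32851 windows. TATAAA was in 11.9% of member windows and 13.6% of all, and the short cyclic-AMP element TGACG in 11.9% and 20.8%. The full cyclic-AMP element TGACGTCA, which contains TGACG, was in 0 of 42 and in 1.79% of all. Likewise TTGCGCAA, TGATGNAAT and the glucocorticoid receptor palindrome, searched on both strands, were in 0 of 42, and in 0.183%, 0.965% and 0.00913% of all windows. These are matches of letters in 300 bases and say nothing about binding.

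Tyrosine is broken down in a short chain that ends in fumarate and acetoacetate, and its enzymes moved unevenly. Tat, tyrosine aminotransferase, takes the first step and is the classical rate-limiting enzyme of the chain. Its level was 79824, 81257 and 82046 in the control libraries, 58381, 57996 and 58136 in the β-CYP libraries and 22022, 21849 and 22395 in the selenite plus β-CYP libraries. The 3 groups did not overlap and were ordered control, β-CYP, selenite plus β-CYP from high to low. The log2 change was -0.48 ± 0.018 (limma adjusted p = 7.62e-08) in β-CYP against control and -1.40 ± 0.018 (limma adjusted p = 5.72e-11) in selenite plus β-CYP against β-CYP, where each ± is the standard error. Against control, Tat was 3.67-fold lower with selenite plus β-CYP, a log2 change of -1.88 ± 0.018 (limma adjusted p = 3.04e-12). Hgd, homogentisate dioxygenase, opens the aromatic ring. It stood at 18981, 18344 and 19363 in the control libraries, 13944, 14066 and 14155 in the β-CYP libraries and 8111, 7922 and 8114 in the selenite plus β-CYP libraries. Its groups were in the same order as those of Tat, without overlap, and its log2 change was -0.43 ± 0.025 (limma adjusted p = 2.3e-06) with β-CYP and a further -0.80 ± 0.025 (limma adjusted p = 1.58e-08) in selenite plus β-CYP against β-CYP. Hpd, which makes the substrate of Hgd, went the other way with β-CYP. Its scaled counts were 60390.3, 60504 and 58543 in the control libraries, 66551, 65010.5 and 64624 in the β-CYP libraries and 41630.4, 42596 and 44632 in the selenite plus β-CYP libraries. The β-CYP libraries were the highest and the selenite plus β-CYP libraries the lowest, with log2 changes of 0.13 ± 0.027 (limma adjusted p = 0.00971) and -0.61 ± 0.027 (limma adjusted p = 2.07e-07).

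Fah, fumarylacetoacetase, closes the chain, and its level was 16449.7, 16524 and 18986 in the control libraries, 18215, 18605 and 17913 in the β-CYP libraries and 13777, 13852 and 13879 in the selenite plus β-CYP libraries. Control and β-CYP overlapped (0.078 ± 0.049, limma adjusted p = 0.351), while all selenite plus β-CYP libraries were lower than all others (-0.40 ± 0.049, limma adjusted p = 0.000246 against β-CYP and -0.32 ± 0.049, limma adjusted p = 0.000818 against control). Qdpr, dihydropteridine reductase, regenerates the tetrahydrobiopterin cofactor of the aromatic amino acid hydroxylases. Its level was 5591, 4669.5 and 7824 in the control libraries, 3667, 3740.1 and 3859.9 in the β-CYP libraries and 3259, 2699 and 3091 in the selenite plus β-CYP libraries. The control libraries spread widely, with replicate 3 the highest, and all lay above both other groups. Qdpr fell with β-CYP (-0.65 ± 0.15, limma adjusted p = 0.018), did not pass in selenite plus β-CYP against β-CYP (-0.32 ± 0.15, limma adjusted p = 0.182), and was lower than control with both agents (-0.97 ± 0.15, limma adjusted p = 0.00111). Summed over the 5 enzymes, the pathway held 181236 to 186763 scaled counts for control, 158687 to 160758 for β-CYP and 88800 to 92113 for selenite plus β-CYP. The Qdpr call in β-CYP against control was lost without β-CYP replicate 1, 2 or 3, with the compared groups fitted alone and with no intensity trend (limma adjusted p 0.0501 to 0.0658), and the one of Hpd with equal library totals, with quantile normalization and with no intensity trend (limma adjusted p 0.112 to 0.185). Qdpr passed in selenite plus β-CYP against β-CYP without control replicate 3 and with the compared groups fitted alone (limma adjusted p 0.0123 to 0.026), and Fah passed in β-CYP against control without control replicate 3 (limma adjusted p = 0.0044). Fah did not pass in selenite plus β-CYP against control with equal library totals and with quantile normalization (limma adjusted p 0.0843 to 0.428).

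**Figure D3:**
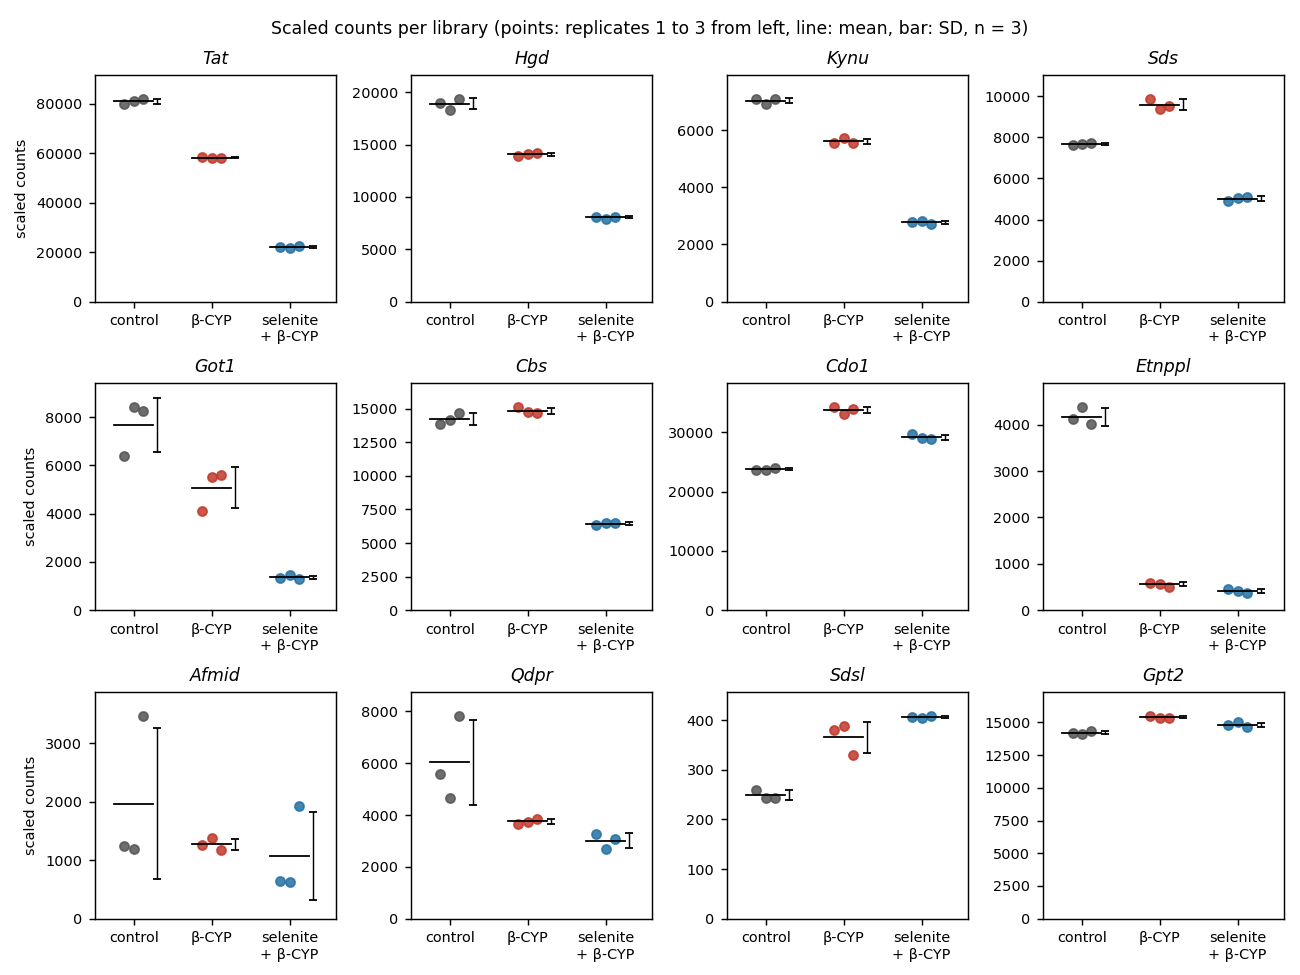
Scaled counts of 12 enzymes in each of the 9 libraries, with the mean and SD of each group. Tat, Hgd, Kynu and Got1 fall from control through β-CYP to selenite plus β-CYP, Etnppl drops mainly in β-CYP, and Cdo1 is highest in β-CYP.

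Tryptophan breakdown through kynurenine leads either to full oxidation or to NAD. Of its 6 enzymes, 5 fell in selenite plus β-CYP against β-CYP, while with β-CYP alone 1 rose and 1 fell. Of all genes 12.3% fell in the former, and 7.72% rose and 8.58% fell in the latter. Among the abundant genes these shares were 42.9%, 20.5% and 24.9%. The pathway's shares with β-CYP, 16.7% in each direction, were no larger than those of the abundant genes. Tdo2, tryptophan dioxygenase, opens the indole ring and limits the pathway in liver. It stood at 37705, 36890.1 and 41653 in the control libraries, 47067, 47734 and 47871 in the β-CYP libraries and 41786, 39422 and 39616 in the selenite plus β-CYP libraries. All β-CYP libraries were above all others, and control and selenite plus β-CYP overlapped. Its log2 change was 0.30 ± 0.042 (limma adjusted p = 0.000943) with β-CYP, -0.24 ± 0.042 (limma adjusted p = 0.00245) in selenite plus β-CYP against β-CYP, and 0.057 ± 0.042 (limma adjusted p = 0.367) in selenite plus β-CYP against control. Kynu, kynureninase, cleaves kynurenines to anthranilate products. Its scaled counts were 7099, 6935 and 7084 in the control libraries, 5561, 5716 and 5566 in the β-CYP libraries and 2792, 2829.9 and 2717 in the selenite plus β-CYP libraries. The groups did not overlap, and the log2 change was -0.33 ± 0.029 (limma adjusted p = 3.74e-05) with β-CYP and -1.01 ± 0.029 (limma adjusted p = 7.55e-09) in selenite plus β-CYP against β-CYP. That placed Kynu 2.53-fold below control in selenite plus β-CYP. Acmsd diverts the pathway away from NAD synthesis. Its scaled counts were 1097, 1086 and 1134 in the control libraries, 782, 781 and 784 in the β-CYP libraries and 317, 558 and 545 in the selenite plus β-CYP libraries. Selenite plus β-CYP replicate 1 was well below the other libraries of its group, and no groups overlapped. The log2 change was -0.50 ± 0.18 (limma adjusted p = 0.0987) with β-CYP and -0.77 ± 0.18 (limma adjusted p = 0.012) in selenite plus β-CYP against β-CYP. Without selenite plus β-CYP replicate 1 the latter was -0.50 (limma adjusted p = 1.93e-04). Acmsd passed in β-CYP against control without selenite plus β-CYP replicate 1, with the compared groups fitted alone and with voom weights on the recovered reads (limma adjusted p 0.000145 to 0.04).

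Kmo, kynurenine monooxygenase, overlapped between control and β-CYP (11356 ± 252 and 11434 ± 119, mean ± SD, n = 3) and was lower with selenite plus β-CYP (9289 ± 212). Its log2 change in selenite plus β-CYP against β-CYP was -0.30 ± 0.027 (limma adjusted p = 2.54e-05), with no overlap between those groups. Haao, which oxidizes 3-hydroxyanthranilate, averaged 11216 ± 50.2 in control, 11684 ± 139.5 in β-CYP and 8958 ± 141 in selenite plus β-CYP, with a log2 change of -0.38 ± 0.022 (limma adjusted p = 1.28e-06) against β-CYP. Afmid, kynurenine formamidase, was uneven among replicates, at 1240.4, 1197 and 3463 in the control libraries, 1255, 1374 and 1176 in the β-CYP libraries and 649, 623 and 1929.9 in the selenite plus β-CYP libraries. Control replicate 3 and selenite plus β-CYP replicate 3 were far above the rest, and no comparison passed (limma adjusted p 0.203 to 0.62). Afmid overlaps Tk1 and Gm20708 in the GENCODE M21 annotation, and the sources used here do not give how shared reads were counted. Without selenite plus β-CYP replicate 3, Afmid passed as lower than control (limma adjusted p = 0.0337). The Tdo2 call in selenite plus β-CYP against β-CYP was lost with equal library totals and with quantile normalization (limma adjusted p 0.302 to 0.62), with quantile normalization giving 0.063, and Tdo2 passed against control without control replicate 3 and with quantile normalization (limma adjusted p 0.00553 to 0.0228). With quantile normalization Kmo did not pass against β-CYP or control, and Haao not against control (limma adjusted p 0.854, 0.604 and 0.102).

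Serine and glycine enzyme transcripts fell in selenite plus β-CYP against β-CYP for 5 of 6 genes, Sdsl being the other. That is 83.3% of them, beside 12.3% of all genes and 42.9% of the abundant genes. Sds, serine dehydratase, turns serine into pyruvate and ammonia for gluconeogenesis. It stood at 7635, 7679 and 7726 in the control libraries, 9878, 9402 and 9525 in the β-CYP libraries and 4894, 5029 and 5113 in the selenite plus β-CYP libraries. The β-CYP libraries were the highest, the selenite plus β-CYP libraries the lowest, and no groups overlapped. Sds rose by 0.32 ± 0.028 (limma adjusted p = 3.92e-05) on the log2 scale with β-CYP and had a log2 change of -0.94 ± 0.028 (limma adjusted p = 1.21e-08) in selenite plus β-CYP against β-CYP, where it was 1.92-fold lower. Sdsl, serine dehydratase-like, is a close relative of Sds that stood lower per kilobase of exon (166 ± 6.60 against 4534 ± 27.0 in control, mean ± SD, n = 3). Its scaled counts were 260.0, 244 and 242 in the control libraries, 379.6, 387 and 330.0 in the β-CYP libraries and 406, 403 and 408 in the selenite plus β-CYP libraries. All β-CYP and selenite plus β-CYP libraries were above all controls, with log2 changes of 0.55 ± 0.082 (limma adjusted p = 0.00125) and 0.71 ± 0.082 (limma adjusted p = 0.000135). Between these groups the change of 0.15 ± 0.082 did not pass (limma adjusted p = 0.227, 95% interval -0.030 to 0.34).

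The glycine cleavage system, a mitochondrial complex that splits glycine into carbon dioxide, ammonia and a one-carbon unit, was represented by Gldc, Amt and Gcsh. Gldc, the decarboxylase, stood at 8041, 7889.6 and 7798 in the control libraries, 7468, 7258 and 7125 in the β-CYP libraries and 4555, 4737 and 4694 in the selenite plus β-CYP libraries. The groups did not overlap, and the step between control and β-CYP (-0.12 ± 0.029, limma adjusted p = 0.0202) was small beside the next (-0.64 ± 0.029, limma adjusted p = 2.19e-07). Gcsh, the lipoyl carrier protein, averaged 2641 ± 38.6, 2531 ± 105 and 1658 ± 94.4 in the 3 groups. Control and β-CYP overlapped for Gcsh, and the selenite plus β-CYP libraries lay below both, with a log2 change of -0.61 ± 0.050 (limma adjusted p = 1.39e-05) against β-CYP. Amt, the aminomethyltransferase, had 1413, 1395 and 1434 in the control libraries, 1369, 1159.9 and 1365 in the β-CYP libraries and 1050.5, 1084 and 1157 in the selenite plus β-CYP libraries. Its change in selenite plus β-CYP against β-CYP was -0.24 ± 0.069 (limma adjusted p = 0.032), the smallest of the 3, and β-CYP replicate 2 was the low library of its group. Agxt, the peroxisomal enzyme that converts glyoxylate to glycine, stood at 9189, 9324 and 9483 in the control libraries, 8815, 8135 and 8646 in the β-CYP libraries and 5434, 5630.3 and 5422 in the selenite plus β-CYP libraries. It was lower in each successive group without overlap, with log2 changes of -0.13 ± 0.034 (limma adjusted p = 0.0286) and -0.63 ± 0.034 (limma adjusted p = 7.75e-07). The Agxt call in β-CYP against control was lost without control replicate 2 or 3 or β-CYP replicate 2 or 3 and with 5 other settings (limma adjusted p 0.0518 to 0.216), and the Gldc call there without control replicate 1 or 2 or β-CYP replicate 2 or 3, with equal library totals, with quantile normalization and with no intensity trend (limma adjusted p 0.0524 to 0.25). The Amt call in selenite plus β-CYP against β-CYP was lost without β-CYP replicate 1 or 3 or selenite plus β-CYP replicate 1 or 2, with equal library totals, with the compared groups fitted alone and with no intensity trend (limma adjusted p 0.0631 to 0.392), and against control with equal library totals (limma adjusted p = 0.0645).

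Histidine breakdown, a linear path of 4 enzymes to glutamate and a one-carbon folate, was lower in selenite plus β-CYP for every enzyme, against β-CYP (4 of 4) and against control (4 of 4). With β-CYP alone, 3 of 4 fell. In the same order, 12.3%, 14.5% and 8.58% of all genes fell, and 42.9%, 45% and 24.9% of the abundant genes. Hal, histidine ammonia-lyase, starts the path, and its level was 6925, 6640.4 and 7539 in the control libraries, 5466, 5745 and 5819 in the β-CYP libraries and 5033, 4542 and 4442 in the selenite plus β-CYP libraries. The 3 groups did not overlap, with log2 changes of -0.31 ± 0.058 (limma adjusted p = 0.00539) and -0.28 ± 0.058 (limma adjusted p = 0.00612) in turn. Uroc1, urocanase, acts next and stood at 13009, 13692 and 13312 in the control libraries, 13064, 13256 and 13335 in the β-CYP libraries and 8294, 8679.7 and 8776 in the selenite plus β-CYP libraries. Control and β-CYP overlapped, and all selenite plus β-CYP libraries were lower, with log2 changes of -0.013 ± 0.029 (limma adjusted p = 0.839) and -0.62 ± 0.029 (limma adjusted p = 2.83e-07). Amdhd1, the imidazolonepropionase, averaged 4330.1 ± 118, 3335 ± 62.9 and 2695 ± 99.1. Its larger step was that with β-CYP, -0.38 ± 0.038 (limma adjusted p = 9.43e-05), against -0.31 ± 0.038 (limma adjusted p = 0.000242) for selenite plus β-CYP against β-CYP, though the difference between those steps was not tested. Ftcd, the folate-dependent enzyme of the last step, had 15124, 15028 and 15137 in the control libraries, 13100.1, 12748 and 13066 in the β-CYP libraries and 9029, 9279 and 9048 in the selenite plus β-CYP libraries. It too was lower in each group in turn, with log2 changes of -0.22 ± 0.022 (limma adjusted p = 0.000104) and -0.51 ± 0.022 (limma adjusted p = 1.76e-07). The path's summed level was 39279 to 40442 scaled counts for control, 34975 to 35488 for β-CYP and 24975 to 25160 for selenite plus β-CYP. The Hal call in selenite plus β-CYP against β-CYP was lost with equal library totals and with quantile normalization (limma adjusted p 0.15 to 0.219).

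In methionine and cysteine metabolism 7 of 8 enzymes fell in selenite plus β-CYP against β-CYP, after 3 had risen and 3 had fallen in β-CYP against control. Of all genes 12.3% fell in the former, and 7.72% rose and 8.58% fell in the latter. Among the abundant genes these shares were 42.9%, 20.5% and 24.9%. Mat1a, Bhmt and Cdo1 rose with β-CYP, and Gnmt, Ahcy and Cth fell. Mat1a, which makes S-adenosylmethionine in hepatocytes, stood at 66710.5, 67309.9 and 68025 in the control libraries, 90208, 90092 and 91693 in the β-CYP libraries and 57232, 57485 and 57491 in the selenite plus β-CYP libraries. The groups did not overlap, with β-CYP on top, and the log2 changes were 0.43 ± 0.015 (limma adjusted p = 6.23e-08) and then -0.66 ± 0.015 (limma adjusted p = 2.76e-09). Bhmt, which remethylates homocysteine with betaine, had 103906, 105698 and 106453 in the control libraries, 127363, 126771 and 128080.0 in the β-CYP libraries and 85811, 85006 and 84581 in the selenite plus β-CYP libraries. Its order was that of Mat1a, with log2 changes of 0.27 ± 0.015 (limma adjusted p = 1.25e-06) and -0.58 ± 0.015 (limma adjusted p = 4.32e-09). Gnmt, glycine N-methyltransferase, disposes of surplus S-adenosylmethionine, and Ahcy hydrolyses the product. Gnmt averaged 35725 ± 488, 29007 ± 283 and 22228 ± 258, with log2 changes of -0.30 ± 0.019 (limma adjusted p = 3.96e-06) and -0.38 ± 0.019 (limma adjusted p = 4.41e-07) in turn. For Ahcy the means were 42430.0 ± 522, 38394 ± 505 and 23104 ± 232, with log2 changes of -0.14 ± 0.019 (limma adjusted p = 0.000543) and -0.73 ± 0.019 (limma adjusted p = 4.32e-09).

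The transsulfuration enzymes, which pass the sulfur of homocysteine to cysteine, both fell in selenite plus β-CYP against β-CYP. Cbs, cystathionine beta-synthase, takes the committed step. Its scaled counts were 13848, 14156 and 14701 in the control libraries, 15104, 14724 and 14715 in the β-CYP libraries and 6327, 6515 and 6518 in the selenite plus β-CYP libraries. The selenite plus β-CYP libraries were far below the other groups, with a log2 change of -1.20 ± 0.028 (limma adjusted p = 2.84e-09) against β-CYP, or 2.30-fold lower. Between control and β-CYP the Cbs change of 0.061 ± 0.028 (limma adjusted p = 0.194) did not pass. Cth, cystathionine gamma-lyase, completes the transfer and stood at 8573, 8065 and 8430.1 in the control libraries, 7162, 5525 and 5860.1 in the β-CYP libraries and 4464, 3503 and 3537 in the selenite plus β-CYP libraries. Replicate 1 was the highest in every group, control included, and still no groups overlapped. The log2 change of Cth was -0.44 ± 0.11 (limma adjusted p = 0.021) with β-CYP and -0.69 ± 0.11 (limma adjusted p = 0.0013) in selenite plus β-CYP against β-CYP.

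Cdo1, cysteine dioxygenase, commits cysteine to sulfinate, taurine and sulfate, and it was above control in both treated groups. Its level was 23594, 23682 and 23909.6 in the control libraries, 34182, 33132 and 33978 in the β-CYP libraries and 29650.5, 29036 and 28825 in the selenite plus β-CYP libraries. No groups overlapped, and the order was β-CYP, selenite plus β-CYP, control. The log2 changes were 0.51 ± 0.020 (limma adjusted p = 1.28e-07) with β-CYP, -0.21 ± 0.020 (limma adjusted p = 4.17e-05) in selenite plus β-CYP against β-CYP and 0.30 ± 0.020 (limma adjusted p = 2.92e-06) against control. Csad, which decarboxylates cysteine sulfinate on the way to taurine, averaged 3598 ± 171, 3871 ± 235 and 3764 ± 146. Its groups overlapped in every comparison and none passed, with 95% intervals of -0.016 to 0.23, -0.16 to 0.082 and -0.056 to 0.19 on the log2 scale. The Cdo1 call against β-CYP was lost with equal library totals and with quantile normalization (limma adjusted p 0.00192 to 0.282); with quantile normalization Cdo1 was called higher there, at 0.15. The Cth call in β-CYP against control was lost without control replicate 1 or 3 or β-CYP replicate 2 or 3 and with no intensity trend (limma adjusted p 0.0667 to 0.091), and that of Ahcy with equal library totals and with no intensity trend (limma adjusted p 0.106 to 0.135). Mat1a lost its call against control with equal library totals and with quantile normalization (limma adjusted p 0.189 to 0.894), Cbs passed in β-CYP against control with quantile normalization (limma adjusted p = 0.0262), and Csad passed as higher in selenite plus β-CYP against control with equal library totals and with quantile normalization (limma adjusted p 0.0335 to 0.0381).

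The branched-chain amino acids leucine, isoleucine and valine are oxidized in mitochondria after transamination, most of which takes place outside the liver. All 7 enzymes of this group fell in selenite plus β-CYP against β-CYP, by 0.21 to 0.59 on the log2 scale. With β-CYP alone 1 rose, 2 fell and 4 did not pass. These shares, 14.3% higher and 28.6% lower, were near those of the abundant genes, 20.5% and 24.9%. Of all genes 7.72% rose and 8.58% fell there. In selenite plus β-CYP against β-CYP 12.3% of all genes and 42.9% of the abundant genes fell. Bckdha and Bckdhb form the first component of the branched-chain ketoacid dehydrogenase, the committed step. Bckdha had 5923, 5949.9 and 6292 in the control libraries, 6789, 6756 and 6527 in the β-CYP libraries and 4561, 4691 and 4669.6 in the selenite plus β-CYP libraries. The β-CYP libraries were highest and the selenite plus β-CYP libraries lowest, with log2 changes of 0.14 ± 0.032 (limma adjusted p = 0.0135) and -0.53 ± 0.032 (limma adjusted p = 1.88e-06). Bckdhb stood at 4386, 4197 and 4170.5 in the control libraries, 3959, 3819.7 and 4042 in the β-CYP libraries and 2690.2, 2622 and 2542 in the selenite plus β-CYP libraries. It was lower in each group in turn without overlap; the first step of -0.11 ± 0.037 (limma adjusted p = 0.0793) did not pass and the second of -0.59 ± 0.037 (limma adjusted p = 2.26e-06) did.

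Leucine's next enzymes are Ivd, isovaleryl-CoA dehydrogenase, and Mccc1, a subunit of methylcrotonyl-CoA carboxylase. Ivd averaged 4585 ± 66.0, 4277 ± 189 and 3121 ± 107, and its log2 change in selenite plus β-CYP against β-CYP was -0.45 ± 0.040 (limma adjusted p = 2.54e-05). The corresponding means of Mccc1 were 1578 ± 43.5, 1432 ± 70.6 and 1159 ± 13.1, and its change -0.30 ± 0.047 (limma adjusted p = 0.0012). Neither passed in β-CYP against control (-0.10 ± 0.040, limma adjusted p = 0.132, and -0.14 ± 0.047, limma adjusted p = 0.0773), although all β-CYP libraries were below all controls. Hibch, a hydrolase of valine breakdown, stood at 2263, 2346 and 2263 in the control libraries, 1883, 1973 and 1912 in the β-CYP libraries and 1472, 1313 and 1311 in the selenite plus β-CYP libraries. It fell in both steps, with log2 changes of -0.25 ± 0.051 (limma adjusted p = 0.00812) and -0.50 ± 0.051 (limma adjusted p = 7.91e-05).

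Propionyl-CoA carboxylase, which takes up the products of isoleucine, valine and methionine, is built from Pcca and Pccb, and these differed. Pcca stood at 2885, 2892 and 3031 in the control libraries, 2534, 2701 and 2681 in the β-CYP libraries and 2018, 1866 and 1979.8 in the selenite plus β-CYP libraries. No groups overlapped, with log2 changes of -0.15 ± 0.044 (limma adjusted p = 0.0406), -0.43 ± 0.044 (limma adjusted p = 6.76e-05) and, against control, -0.59 ± 0.044 (limma adjusted p = 6.13e-06). Pccb stood at 4865, 5241 and 4640.2 in the control libraries, 5486, 5543 and 5446 in the β-CYP libraries and 5127, 4625 and 4549 in the selenite plus β-CYP libraries. Here β-CYP was above both other groups, which overlapped each other, and the changes were 0.16 ± 0.054 (limma adjusted p = 0.0765), -0.21 ± 0.054 (limma adjusted p = 0.021) and -0.045 ± 0.054 (limma adjusted p = 0.6). Several of these calls changed with a setting or a library. In β-CYP against control, Pcca was lost without control replicate 1, 2 or 3, β-CYP replicate 1, 2 or 3 or selenite plus β-CYP replicate 3 and with 5 other settings (limma adjusted p 0.0503 to 0.2), and Bckdha without control replicate 1 or 2 or β-CYP replicate 1 or 2, with equal library totals and with no intensity trend (limma adjusted p 0.0503 to 0.142). In that comparison Pccb passed without control replicate 2 or selenite plus β-CYP replicate 1 (limma adjusted p 0.0344 to 0.0428), and Mccc1 without β-CYP replicate 3 (limma adjusted p = 0.0492). Pccb was lost in selenite plus β-CYP against β-CYP without β-CYP replicate 1, 2 or 3 or selenite plus β-CYP replicate 2 or 3, with equal library totals, with quantile normalization and with no intensity trend (limma adjusted p 0.0558 to 0.546), and Mccc1 with equal library totals (limma adjusted p = 0.0584).

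Aspartate and alanine aminotransferases move nitrogen between amino acids and ketoacids, each with a cytosolic and a mitochondrial form, and Glud1 releases it as ammonia. The cytosolic aspartate form, Got1, changed the most of these 5 in each comparison. Its scaled counts were 6399, 8406 and 8245 in the control libraries, 4107, 5528 and 5605 in the β-CYP libraries and 1316, 1445 and 1306 in the selenite plus β-CYP libraries. The groups did not overlap; replicate 1 was the low library in both control and β-CYP, and the selenite plus β-CYP libraries were close together. The log2 change was -0.60 ± 0.13 (limma adjusted p = 0.0124) with β-CYP and -1.89 ± 0.13 (limma adjusted p = 4.93e-06) in selenite plus β-CYP against β-CYP, or 3.71-fold lower. Against control it was 5.63-fold lower (-2.49 ± 0.13, limma adjusted p = 5.42e-07). Got2, the mitochondrial form, stood at 13275, 14182 and 14683 in the control libraries, 15398, 15809.7 and 15612 in the β-CYP libraries and 12891, 13283 and 12929.7 in the selenite plus β-CYP libraries. The β-CYP libraries were the highest, and control and selenite plus β-CYP overlapped. The log2 change of Got2 was 0.15 ± 0.035 (limma adjusted p = 0.0151) with β-CYP and -0.26 ± 0.035 (limma adjusted p = 0.000479) in selenite plus β-CYP against β-CYP. Against control the change was -0.11 ± 0.035 (limma adjusted p = 0.0473).

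The cytosolic alanine form, Gpt, averaged 5753 ± 221, 6085 ± 245 and 4298 ± 93.4. It did not pass with β-CYP (0.081 ± 0.040, limma adjusted p = 0.227) and fell in selenite plus β-CYP against β-CYP (-0.50 ± 0.040, limma adjusted p = 1.18e-05). Gpt2, the mitochondrial form, had 14216, 14092 and 14315 in the control libraries, 15488, 15349 and 15322 in the β-CYP libraries and 14795, 14988 and 14631 in the selenite plus β-CYP libraries. Its β-CYP libraries were the highest and its controls the lowest, without overlap, but the distances were small. The log2 changes of Gpt2 were 0.12 ± 0.020 (limma adjusted p = 0.0031), -0.056 ± 0.020 (limma adjusted p = 0.0733) and, against control, 0.059 ± 0.020 (limma adjusted p = 0.0498). Glud1, glutamate dehydrogenase, stood at 29196, 29404 and 30173 in the control libraries, 32209.9, 32372 and 32079 in the β-CYP libraries and 22685, 22570.1 and 22353 in the selenite plus β-CYP libraries. It rose with β-CYP (0.12 ± 0.019, limma adjusted p = 0.00154) and fell in selenite plus β-CYP against β-CYP (-0.52 ± 0.019, limma adjusted p = 4.75e-08), ending below control (-0.39 ± 0.019, limma adjusted p = 2.52e-07). The pseudogenes Got2-ps1 and Glud-ps are also in the table, so reads of Got2 and Glud1 may have been split.

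Of these calls, Got1 in β-CYP against control was lost without control replicate 2 or 3 and with no intensity trend (limma adjusted p 0.0514 to 0.0535). Got2 lost its call in β-CYP against control without β-CYP replicate 2 or 3, with equal library totals and with no intensity trend (limma adjusted p 0.0538 to 0.151), and its call against β-CYP with equal library totals and with quantile normalization (limma adjusted p 0.0932 to 0.245). Against control, the Got2 call was lost or reversed without control replicate 2 or 3, β-CYP replicate 1, 2 or 3 or selenite plus β-CYP replicate 1, 2 or 3 and with 6 other settings (limma adjusted p 0.0119 to 0.716); its change was 0.030 with equal totals and 0.14 with quantile normalization, where it was called higher. Gpt2 lost its call against control without any 1 of the 9 libraries and with 7 other settings (limma adjusted p 0.0505 to 0.659), and its call in β-CYP against control with equal library totals and with no intensity trend (limma adjusted p 0.167 to 0.179). Gpt2 passed in selenite plus β-CYP against β-CYP with 4 settings (limma adjusted p 0.000537 to 0.0333), at 0.17 with quantile normalization and below 0 with the others. Glud1 lost its call in β-CYP against control with equal library totals and with no intensity trend (limma adjusted p 0.131 to 0.158) and its call in selenite plus β-CYP against control with quantile normalization (limma adjusted p = 0.673).

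Of the remaining 4 enzymes, Etnppl had the largest change of all members with β-CYP. It is an ethanolamine-phosphate phospho-lyase, which releases ammonia and acetaldehyde from phosphoethanolamine. Its level was 4129.9, 4376 and 4007 in the control libraries, 595, 574 and 510.2 in the β-CYP libraries and 458, 414 and 378 in the selenite plus β-CYP libraries. Every treated library was far below every control, 7.45-fold on average with β-CYP (-2.90 ± 0.083, limma adjusted p = 1.37e-08) and 10.0-fold with selenite plus β-CYP (-3.32 ± 0.083, limma adjusted p = 2.08e-09). The step between the treated groups was -0.43 ± 0.083 (limma adjusted p = 0.00432). Aass, which starts lysine breakdown, stood at 10663, 10519 and 10415 in the control libraries, 13868, 14178 and 14042 in the β-CYP libraries and 9234, 9263 and 9147 in the selenite plus β-CYP libraries. It rose with β-CYP (0.41 ± 0.021, limma adjusted p = 8.56e-07), fell in selenite plus β-CYP against β-CYP (-0.61 ± 0.021, limma adjusted p = 3.63e-08) and ended below control (-0.19 ± 0.021, limma adjusted p = 9.89e-05). Prodh, proline dehydrogenase, had 3629, 3884 and 3613 in the control libraries, 3723, 3864 and 4037 in the β-CYP libraries and 1838, 2394 and 2347 in the selenite plus β-CYP libraries. Control and β-CYP overlapped, and all selenite plus β-CYP libraries were lower, replicate 1 most of all (a log2 change against β-CYP of -0.83 ± 0.090, limma adjusted p = 0.000107). Prodh2, which acts on hydroxyproline, averaged 2683 ± 109.7, 2605 ± 30.3 and 1755 ± 98.1, with a change of -0.57 ± 0.048 (limma adjusted p = 1.84e-05) against β-CYP. The Aass call against control was lost with equal library totals and with quantile normalization (limma adjusted p 0.0518 to 0.461), with quantile normalization giving 0.080.

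Ratios of paired enzymes within a library do not depend on its scaling. With 3 libraries against 3, an exact two-sided permutation test cannot go below p = 0.10, so no ratio can pass, and 21 such tests of 7 ratios were made (lowest adjusted p = 0.124). The ratio of Got1 to Got2 was 0.482, 0.593 and 0.562 in control, 0.267, 0.350 and 0.359 in β-CYP and 0.102, 0.109 and 0.101 in selenite plus β-CYP. The groups did not overlap, and the ratio was 5.23-fold lower in selenite plus β-CYP than in control (exact permutation p = 0.1). The ratio of Gpt to Gpt2 was 0.397, 0.398 and 0.420 in control, 0.387, 0.414 and 0.385 in β-CYP and 0.295, 0.290 and 0.286 in selenite plus β-CYP. Here control and β-CYP overlapped, and selenite plus β-CYP lay below both. The ratio of Sds to Sdsl was 29.4, 31.5 and 31.9 in control, 26.0, 24.3 and 28.9 in β-CYP and 12.1, 12.5 and 12.5 in selenite plus β-CYP. For Pcca to Pccb the values were 0.593, 0.552 and 0.653 in control, 0.462, 0.487 and 0.492 in β-CYP and 0.394, 0.403 and 0.435 in selenite plus β-CYP. Both were lower in each group in turn without overlap. The ratio of Bckdha to Bckdhb, 2 subunits that assemble together, was 1.35, 1.42 and 1.51 in control, 1.71, 1.77 and 1.61 in β-CYP and 1.70, 1.79 and 1.84 in selenite plus β-CYP. The treated groups overlapped, and both were above control. The ratio of Cdo1 to Csad was 6.94, 6.41 and 6.47 in control, 9.48, 8.17 and 8.61 in β-CYP and 7.57, 7.73 and 7.96 in selenite plus β-CYP, with no overlap and β-CYP the highest. For Prodh to Prodh2 it was 1.39, 1.48 and 1.29 in control, 1.44, 1.46 and 1.56 in β-CYP and 0.989, 1.37 and 1.41 in selenite plus β-CYP, with control overlapping both treated groups.

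**Figure D4:**
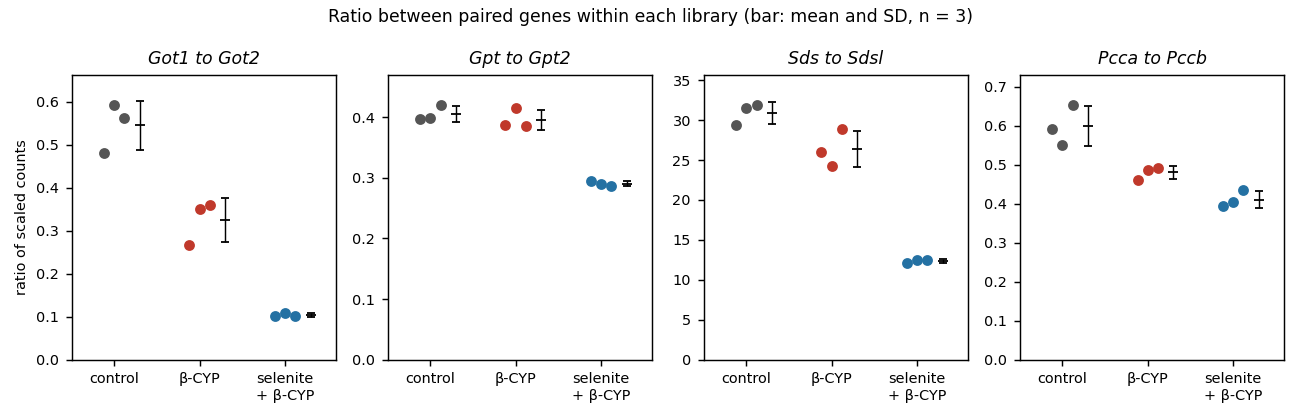
Ratio of scaled counts of paired enzymes in each of the 9 libraries, with the group means. Got1 to Got2 falls from 0.482 to 0.593 in control to 0.101 to 0.109 in selenite plus β-CYP, and Gpt to Gpt2 spans 0.397 to 0.420 in control and 0.286 to 0.295 in selenite plus β-CYP.

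To compare levels between genes, scaled counts were divided by the length of all annotated exons of a gene in kilobases (GENCODE M21, GRCm38). On this scale Tat was the highest of the 45 members in control, at 33697 ± 468 per kilobase (mean ± SD, n = 3), and the seventh in selenite plus β-CYP, at 9184 ± 116. Gnmt (29623 ± 405) and Hpd (28107 ± 517) followed in control. In selenite plus β-CYP the order at the top was Hpd (20185 ± 720.2), Gnmt (18431 ± 214) and Cdo1 (17744 ± 261), and the last pair lay close together. Got1 went from rank 18 to 35, at 3026 ± 439 and 534 ± 30.6 per kilobase, and Etnppl from 40 to 45, at 505 ± 22.7 and 50.4 ± 4.85. Exon lengths of the authors' build were not used here, so ranks of neighbours are approximate.

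Other genes of amino acid breakdown, a list of 56 tested genes outside the 45, moved in the same comparisons as follows. In selenite plus β-CYP against β-CYP 40 of 56 fell and 4 rose. With β-CYP against control 13 fell and 9 rose, and in selenite plus β-CYP against control 39 fell and 7 rose. The falls were 71.4%, 23.2% and 69.6% of this list, in that order. Over all genes 12.3%, 8.58% and 14.5% fell, and among the abundant genes 42.9%, 24.9% and 45%. The largest falls in selenite plus β-CYP against β-CYP were those of Aldh4a1, the next enzyme of proline breakdown, Gls2, the liver glutaminase, and Ppm1k, the phosphatase that activates the branched-chain dehydrogenase. Aldh4a1 went from 12490.1 ± 419 to 6380.1 ± 268 scaled counts, a log2 change of -0.97 ± 0.056 (limma adjusted p = 1.22e-06). For Gls2 the change was -0.96 ± 0.029 (limma adjusted p = 1.12e-08), and for Ppm1k -0.71 ± 0.047 (limma adjusted p = 3.09e-06). The largest rises were those of Kyat3, a kynurenine aminotransferase, Dhtkd1, of lysine breakdown, and Bcat2, a branched-chain aminotransferase. Kyat3 went from 1135 ± 67.1 to 4628 ± 228 scaled counts, with a log2 change of 2.03 ± 0.057 (limma adjusted p = 7.5e-09). The changes of Dhtkd1 and Bcat2 were 0.62 ± 0.036 (limma adjusted p = 1.33e-06) and 0.50 ± 0.069 (limma adjusted p = 0.000547).

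With β-CYP against control the 3 largest falls of this list were Aadat (-0.56 ± 0.030, limma adjusted p = 1.14e-06), Kyat3 (-0.45 ± 0.057, limma adjusted p = 0.00042) and Dhtkd1 (-0.41 ± 0.036, limma adjusted p = 3.71e-05). Rises there included Grhpr (0.47 ± 0.056, limma adjusted p = 0.000284) and Kyat1 (0.41 ± 0.038, limma adjusted p = 5.42e-05). Thus the kynurenine aminotransferases Kyat1 and Kyat3 were called in opposite directions, and Kyat3 fell with β-CYP and was above control with selenite plus β-CYP (1.57 ± 0.057, limma adjusted p = 3.25e-08). Against control, selenite plus β-CYP gave its largest falls in Gls2 (-1.26 ± 0.029, limma adjusted p = 1.19e-09), Suox, sulfite oxidase (-1.01 ± 0.050, limma adjusted p = 3.21e-07), and Aldh4a1 (-0.97 ± 0.056, limma adjusted p = 9.69e-07). Its largest rises there, beside Kyat3, were Bcat2 (0.60 ± 0.069, limma adjusted p = 0.00012) and Bckdk, the kinase that switches off the branched-chain dehydrogenase (0.45 ± 0.10, limma adjusted p = 0.00786).

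Amino acid transporters bring the substrates into the cell and its mitochondria. Of 26 tested, 11 fell and 2 rose in selenite plus β-CYP against β-CYP, 8 fell and 3 rose in β-CYP against control, and 14 fell and 4 rose in selenite plus β-CYP against control. The falls were 42.3%, 30.8% and 53.8% of the carriers, in that order. Over all genes 12.3%, 8.58% and 14.5% fell, and among the abundant genes 42.9%, 24.9% and 45%. The carriers' shares were nearer to those of the abundant genes. Slc3a1, a partner of a cystine and basic amino acid carrier, rose with β-CYP (0.80 ± 0.027, limma adjusted p = 4.84e-08) and fell in selenite plus β-CYP against β-CYP (-1.03 ± 0.027, limma adjusted p = 5.45e-09). Slc38a2, a system A neutral amino acid carrier, went from 5586 ± 28.1 to 3978 ± 139 scaled counts with β-CYP (-0.49 ± 0.033, limma adjusted p = 5.6e-06). It then fell further in selenite plus β-CYP (-0.82 ± 0.033, limma adjusted p = 1.01e-07). Slc25a15, the mitochondrial ornithine carrier, fell in selenite plus β-CYP against β-CYP (-0.76 ± 0.035, limma adjusted p = 2.33e-07). Slc6a6, the taurine carrier, fell with β-CYP (-0.71 ± 0.036, limma adjusted p = 7.07e-07) and rose in selenite plus β-CYP against β-CYP (0.25 ± 0.036, limma adjusted p = 0.000754), and Slc7a8 did likewise (-0.35 ± 0.10, limma adjusted p = 0.0476, and 0.64 ± 0.10, limma adjusted p = 0.00153). Slc16a10 and Slc25a13 were the other carriers that rose with β-CYP (0.29 and 0.10). Against control, selenite plus β-CYP gave the largest rises in Slc43a2 (2.06 ± 0.50, limma adjusted p = 0.0118), Slc7a5 (0.73 ± 0.17, limma adjusted p = 0.0109) and Slc38a1 (0.69 ± 0.21, limma adjusted p = 0.0382). The largest falls there were Slc38a2 (-1.31), Slc38a4 (-0.96) and Slc25a15 (-0.95). The Slc7a8 call in β-CYP against control was lost without control replicate 2 or 3, β-CYP replicate 1, 2 or 3 or selenite plus β-CYP replicate 1, 2 or 3 and with 7 other settings (limma adjusted p 0.0525 to 0.14), and that of Slc25a13 without control replicate 1, 2 or 3, β-CYP replicate 1, 2 or 3 or selenite plus β-CYP replicate 2 and with 7 other settings (limma adjusted p 0.0513 to 0.276). Against control, selenite plus β-CYP lost the Slc38a1 call without control replicate 2 or 3, β-CYP replicate 2 or selenite plus β-CYP replicate 1 or 2 and with 5 other settings (limma adjusted p 0.0511 to 0.119) and the Slc43a2 call without selenite plus β-CYP replicate 1 (limma adjusted p = 0.0508).

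Of 20 genes of glucocorticoid and glucagon response and other regulators of these enzymes, 13 fell and 2 rose in selenite plus β-CYP against β-CYP, 6 fell and 7 rose with β-CYP, and 10 fell and 5 rose in selenite plus β-CYP against control. The falls were 65%, 30% and 50% of the regulators, in that order. Over all genes 12.3%, 8.58% and 14.5% fell, and among the abundant genes 42.9%, 24.9% and 45%. Klf15, a transcription factor known for promoting amino acid breakdown, went from 7514 ± 173 to 4431 ± 152 scaled counts with β-CYP (-0.76 ± 0.039, limma adjusted p = 7.31e-07), and fell further in selenite plus β-CYP (-0.92 ± 0.039, limma adjusted p = 1.22e-07). Tsc22d3, a glucocorticoid-induced leucine zipper protein, fell likewise (-0.80 ± 0.070, limma adjusted p = 3.54e-05, and -1.01 ± 0.070, limma adjusted p = 4.45e-06). Fkbp5, another glucocorticoid-induced gene, rose with β-CYP (1.28 ± 0.040, limma adjusted p = 2.22e-08) and stayed above control with selenite plus β-CYP (1.09 ± 0.040, limma adjusted p = 3.36e-08). Zbtb16 moved in the same directions as Fkbp5 (0.85 ± 0.067, limma adjusted p = 1.77e-05, and 0.39 ± 0.067, limma adjusted p = 0.00172). In β-CYP against control these glucocorticoid-induced genes were therefore called in both directions. None of them was called higher in selenite plus β-CYP against β-CYP, where the 2 of 20 that rose were Cebpa and Atf4. Ppargc1a, the fasting-induced coactivator, fell with β-CYP (-1.05 ± 0.12, limma adjusted p = 0.000293) and was below control with both agents (-1.39 ± 0.12, limma adjusted p = 2.23e-05). Cebpb fell in selenite plus β-CYP against β-CYP (-0.94 ± 0.051, limma adjusted p = 8.11e-07), while Cebpa and Atf4, the latter a factor of the amino acid starvation response, rose (0.28 ± 0.062, limma adjusted p = 0.00907, and 0.18 ± 0.038, limma adjusted p = 0.00772). Atf4 was also above control (0.43 ± 0.038, limma adjusted p = 1.97e-05), and Foxa2 rose with β-CYP (0.47 ± 0.092, limma adjusted p = 0.0067). The Cebpa call was lost with no intensity trend (limma adjusted p = 0.0549), and the Atf4 call against β-CYP with no intensity trend (limma adjusted p = 0.0574).

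Hepatocytes divide the work by position in the lobule, and most amino acid breakdown is placed near the portal vein. Of 11 periportal markers, 9 fell and none rose in selenite plus β-CYP against β-CYP, 6 fell and 2 rose with β-CYP, and 10 fell in selenite plus β-CYP against control. Their summed level was 402614 to 409656 scaled counts for control, 312548 to 317096 for β-CYP and 222500 to 224644 for selenite plus β-CYP. Of 11 pericentral markers, 6 fell and 1 rose in selenite plus β-CYP against β-CYP, 3 fell and 2 rose with β-CYP, and 8 fell and none rose in selenite plus β-CYP against control. Their sums were 248319 to 261041, 245732 to 250238 and 191870 to 194783. Of 15 general hepatocyte markers, 12 rose and none fell with β-CYP, 10 fell and 3 rose in selenite plus β-CYP against β-CYP, and 8 rose and 5 fell in selenite plus β-CYP against control. The falls were 81.8%, 54.5% and 90.9% of the periportal and 54.5%, 27.3% and 72.7% of the pericentral markers, in the order given. Over all genes 12.3%, 8.58% and 14.5% fell, and among the abundant genes 42.9%, 24.9% and 45%. With β-CYP 80% of the general markers rose, beside 7.72% of all genes and 20.5% of the abundant ones. The part of these marker shifts in the members' changes was not tested.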

How the data were processed

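Liver RNA was sequenced in 9 libraries. Extraction used Trizol and library construction a TruSeq RNA kit, per the labels' protocols; those protocols name a BGISEQ instrument and the design text a HiSeq one. The submitters' processing notes list HISAT, Cufflinks and the build mm9, without versions. Counting tool and annotation were not given in the sources used here. Log2 values were deposited by the authors and were checked to equal log2(reads × library factor + 1): whole reads, within 0.02, were recovered for 100% of values in each library. Undoing the log gave the scaled counts.

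A model of 3 group means was fitted with limma 3.58.1 in R 4.3.3 to the deposited log2 values of all 9 libraries, with an intensity trend, after a filter that kept mean scaled counts of 1 or more. Two-sided p-values were adjusted by Benjamini-Hochberg over all 20145 genes, with a threshold of 0.05. Rose, fell and passed refer to that threshold; fold changes carry the pseudocount of 1. The model was also run on simulated counts with the same extra variation for every gene and library. Those counts held no library set apart like control replicate 2, so no conclusion is drawn from them here. The planned edgeR test applies to deposited counts and was not run; voom weights on the recovered reads were an alternative. The labels do not say that replicate numbers pair mice, so no pairing was used. Deviations from the group means, over 10520 genes, correlated at -0.111 to 0.094 between same-numbered libraries of different groups. Between differently numbered ones the range was -0.118 to 0.175.

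The members and gene lists were chosen with earlier results of these data known, and no list was tested. Every member may be named; of the lists of other breakdown genes, transporters and regulators, the 3 largest called changes in each direction per comparison were named, except 1 gene that is not reported here. By GENCODE M21, 20 of 45 members overlap another gene, 8 of them a protein-coding one (Afmid, Bckdha, Csad, Hpd, Kmo, Pcca, Prodh and Sds). No source used here gives the strand setting of the counting, so such reads cannot be told apart. Promoter coordinates are those of RefSeq's GRCm38.p6; no mm9 coordinates were used.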

Additional observations from a re-analysis of the deposited data

How the results depend on the processing

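Across 21 alternatives (scaling, pseudocount, filter, fit and each library left out), the same call was kept by 28 of 45 members in β-CYP against control, 35 in selenite plus β-CYP against β-CYP and 33 in selenite plus β-CYP against control. Counts of members that moved by over 1.5 times were those higher in β-CYP against control (7 with equal totals and 7 with no trend, from 12), those lower there (9 with no trend, from 16), and those higher under quantile normalization in selenite plus β-CYP against β-CYP (2, from 0) and against control (6, from 3). Members called in neither fit changed sign too, at most 2 of them with any alternative. Where the main or the alternative fit made a call, changes of sign were found with quantile normalization for Tdo2 (0.063), Cdo1 (0.15) and Gpt2 (0.17) in selenite plus β-CYP against β-CYP. Those in selenite plus β-CYP against control were for Got2 (0.14), Mat1a (0.007) and Aass (0.080). Got2 there was 0.030 with equal totals. The cause was not tested. Leaving out each library in turn, members higher numbered 10 to 13, 0 and 2 to 3 in the 3 comparisons and members lower 11 to 17, 38 to 41 and 37 to 38; the pairs left were assumed to vary like the other groups. With the label number as a replicate block, 12 members rose and 14 fell in β-CYP against control, 0 and 40 in selenite plus β-CYP against β-CYP, and 2 and 38 in selenite plus β-CYP against control; genes higher and lower were 1385 and 1571, 2171 and 2310, and 2734 and 2772. The Agxt and Pcca calls in β-CYP against control and the Gpt2 call in selenite plus β-CYP against control did not pass with the block (limma adjusted p 0.0615, 0.0661 and 0.089), nor did those of Slc25a13 and Slc7a8 in β-CYP against control and of Slc38a1 in selenite plus β-CYP against control (limma adjusted p 0.0878, 0.0923 and 0.0714). The numbers are not known to pair mice. Counting error limits small changes. Its median over the members was 1.17% to 1.41% in the 3 groups, and it is larger for members with few reads, such as Sdsl (212 to 441 reads).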
